A study of Mus musculus with 17 samples.

Results

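The complement genes described here are *C1qa*, *C1qb*, *C1qc*, *C3*, *C4b*, *Cfb*, *C3ar1*, *C5ar1* and *Serping1*, 9 genes chosen by name from the 56748 genes of a count table of mouse heart RNA. They were compared between 9 hearts of *Polg* hMut mice (hMut) and 8 hearts of control mice (Ctrl), all collected at 12 to 16 months of age. The hMut mice were *Polg* iMut/iMut; +/Ckmm-cre. Cre expressed from the Ckmm promoter, which is active in heart and skeletal muscle, removes a floxed wild-type cassette so that a proofreading-deficient mitochondrial DNA polymerase is made from the same locus. Cells in which this promoter is silent keep the cassette. The methods name C57BL/6N as a strain used in breeding the mutator lines. The alleles that the Ctrl mice carried are not given in the sources used here, and no animal received a treatment. Each library was labelled as its own heart tissue sample, and p-values measure the spread between these samples. Total counts per library lay between 34425783 and 46486964 in Ctrl and between 32915159 and 40175122 in hMut.

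Complement is a cascade of plasma and tissue proteins that tags microbes and dying cells for removal. C1q, a complex of 3 chains, binds a surface and starts the classical pathway through the proteases C1r and C1s, which cut C4 and C2 into a convertase. Factor B serves the alternative pathway in the same way as C2 serves the classical one, both convertases cut C3, and the fragments act on receptors such as C3aR and C5aR1. C1 inhibitor, encoded by *Serping1*, restrains the cascade. In solid organs C1q is made mainly by resident macrophages, whereas C3, C4 and C1 inhibitor are also made by fibroblasts and other stromal cells, and the liver makes most of the proteins found in plasma.

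Some libraries stood apart before any complement gene was considered. Levels are given as CPM, read counts brought to a common library size after TMM normalization. The summed CPM of 16 macrophage markers ran from 269.7 to 399.7 in Ctrl and from 345 to 421.6 in hMut replicates 1 to 5, 7 and 8, and reached 1384 in hMut replicate 6 and 709 in hMut replicate 9. In replicate 6, 14 of these markers, and in replicate 9, 13 of them, were above every Ctrl heart. For all genes of the test described below, the shares were 31.1% and 27.9%. The same replicates had the lowest sums of 7 cardiomyocyte markers, 35920 and 34160 CPM, against 43710 to 53490 in Ctrl and 44960 to 52710 in the other hMut hearts. The sum of 11 fibroblast markers was between 1852 and 2240 in Ctrl and between 1943 and 2403 in most hMut hearts, with 2902 in replicate 6 and 2382 in replicate 9. In replicate 6, 9 of these markers, and in replicate 9 also 9, were above every Ctrl heart, beside the same shares of all genes. *Pdgfra* (52.47 CPM) and *Dpt* (103.8 CPM) in replicate 6 were barely above the highest Ctrl values, 52.28 and 103.6 CPM. *Postn* was at 306.8 and 206.5 CPM in replicates 6 and 9, against 29.4 to 50.3 in Ctrl. *Lum* lay within the Ctrl range. *Gsn*, the most abundant of the list, was at 691.3 and 653.7 CPM, against 813.6 to 1139 in Ctrl, which lowered the sums. For 10 interferon-stimulated genes the sum ran from 106.8 to 166.1 in Ctrl and from 103.5 to 179.7 in most hMut hearts, with 1094 in replicate 6 and 298 in replicate 9. Lymphoid markers were highest in hMut replicate 6 (80.5 CPM) and Ctrl replicate 3 (50.5 CPM), with medians of 7.60 in Ctrl and 7.96 in hMut. Hepatocyte markers summed to 387 CPM in Ctrl replicate 3 and 125.8 CPM in hMut replicate 4, with medians of 2.17 and 2.61, and adipocyte markers were also highest in these libraries (21.9 and 6.78 CPM). Neutrophil markers stayed low, between 0.593 and 3.25 CPM in Ctrl and between 0.686 and 2.83 in hMut, with *Ly6g* and *Elane* at no more than 3 counts in every library. Endothelial markers lay between 670.3 and 864 CPM in Ctrl and between 749.9 and 1026 in hMut, and *Kdr* was the one marker of any list that passed the test described below. *Polg* was at 27.1 to 47.2 CPM in Ctrl and at 47.0 to 65.1 in hMut, but gene counts do not show which allele was transcribed.

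None of the 9 complement genes passed the test of hMut against Ctrl, and all 9 had a positive log2 fold change, with a median of 0.70. Each gene was tested with edgeR's quasi-likelihood test over the 16195 genes that passed a filter on low counts, with Benjamini-Hochberg adjustment and a threshold of 0.05. All 9 members passed the filter, and 0 were called. Of all genes tested, 749 were called (4.62%), 564 of them higher (3.48%), the median log2 fold change was 0.0023, and 50.5% were above 0. At an unadjusted p under 0.05, 8 of the 9 members were higher, all except *Cfb*, against 14.5% of all genes (25.8% in either direction). That count fell to 5 with sex as a covariate (12.9% of all genes), 3 with limma-voom (15.1%) and 1 with the replicate number as a block (10.1%), to 3 of 8 without hMut replicate 6 (12.2%), 4 of 8 without replicate 9 (11.9%) and 2 of 8 without both (9.87%), and to 5 without Ctrl replicate 5 (12.9%). The members' median was 0.31 with limma-voom and 0.42 with the block. DESeq2 called 1 member, *C5ar1*, where it called 9.61% of all genes, and limma-voom with quality weights called 0 members and 12.8% of all genes. In bulk tissue, fewer cells of a type and less RNA per cell cannot be told apart.

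The members' values differed more between hMut hearts than between the groups. hMut replicate 6 was the highest of all 17 hearts for each of the 9 members, a place it held for 21.1% of all genes tested. hMut replicate 9 was second for 8 members, the exception being *Cfb*, where hMut replicate 5 was second. With replicate 6 left out, the median log2 fold change of the 8 members that could still be tested was 0.35, and with replicates 6 and 9 both left out it was 0.16. No member was called in either fit, where 3.09% and 2.67% of all genes were called.

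**Figure D1:**
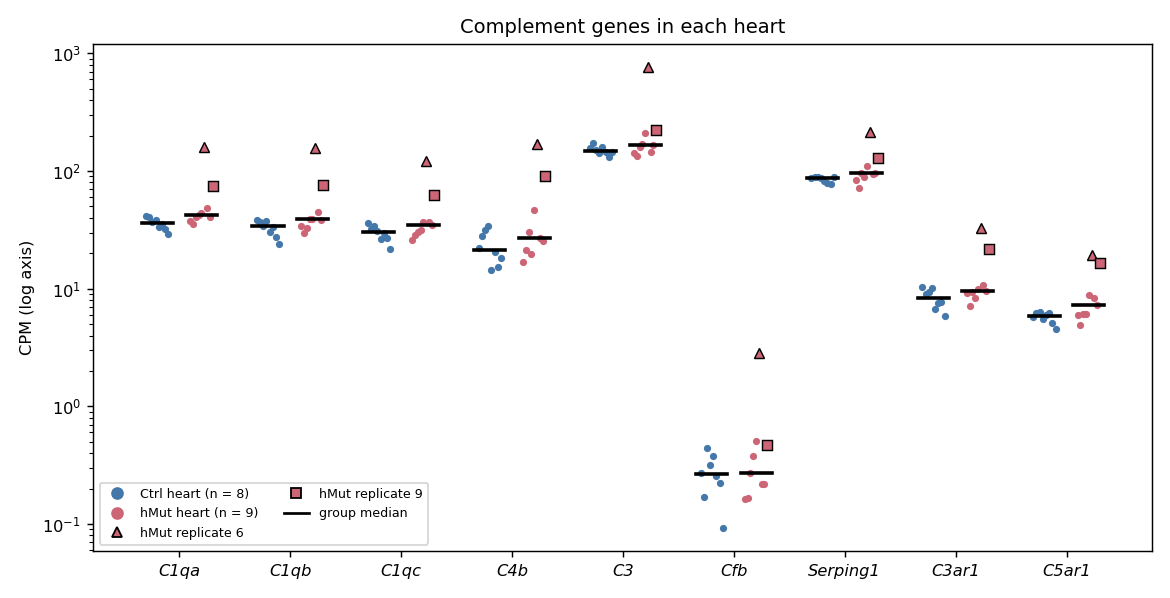
CPM (log axis) of the 9 complement genes in each of 8 Ctrl and 9 hMut hearts, with points for single hearts and a line at each group's median. The triangle (hMut replicate 6) is the highest point of every gene, from 2.87 CPM for *Cfb* to 764 CPM for *C3*, and the group medians lie close together.

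The 3 chains of C1q are encoded side by side within 18675 bp of the minus strand of chromosome 4 (GRCm39), each gene with 3 exons. *C1qb* (ENSMUSG00000036905) lies at 136607440-136613498, *C1qc* (ENSMUSG00000036896) at 136617115-136620376 and *C1qa* (ENSMUSG00000036887) at 136623228-136626114. Because the genes are neighbours and were read together, the 250 bases before the start of 2 of them are shown, from RefSeq on GRCm38.p6, 5′ to 3′ on the gene's strand. Capitals mark GAGGAA, a sequence to which the myeloid factor PU.1 is known to bind, or its reverse complement TTCCTC.
*C1qb*, chr4:136886201-136886450, minus strand: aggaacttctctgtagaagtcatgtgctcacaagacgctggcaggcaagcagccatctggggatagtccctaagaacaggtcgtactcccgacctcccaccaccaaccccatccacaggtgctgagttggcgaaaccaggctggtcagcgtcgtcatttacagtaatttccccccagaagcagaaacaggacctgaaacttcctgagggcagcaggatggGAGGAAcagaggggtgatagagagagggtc
*C1qc*, chr4:136892915-136893164, minus strand: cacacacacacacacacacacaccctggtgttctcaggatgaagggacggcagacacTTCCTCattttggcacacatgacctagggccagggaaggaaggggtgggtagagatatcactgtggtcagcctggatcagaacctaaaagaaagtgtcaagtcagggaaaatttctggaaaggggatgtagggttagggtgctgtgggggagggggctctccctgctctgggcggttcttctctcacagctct
The match in *C1qb* started 30 bases upstream of the gene's start, and that in *C1qc* started 193 bases upstream on the opposite strand. Searched on both strands, GAGGAA was present in 23.4% of 32536 RefSeq promoters of this length, so a match is a description of the sequence and not a binding site. Of the 9 members, 5 had an entry, and those of *C3*, *C3ar1* and *C5ar1* held no GAGGAA on either strand, though shorter parts of it such as GGAA occur in them. A pair of GAAA blocks with 2 bases between them (an interferon-response type of element, in 2.98% of promoters) and TTCNNNGAA (a STAT type of element, in 7.04%) were in none of the promoters read here. *C1qa*, *C4b*, *Cfb* and *Serping1* had no entry.

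*C1qa* was at 29.0 to 41.5 CPM in Ctrl hearts (median 36.2) and at 35.4 to 159.9 in hMut hearts (median 42.5). The groups overlapped. The highest Ctrl heart was exceeded in 5 of 9 hMut hearts, among them replicate 6 at 159.9 and replicate 9 at 73.9 CPM, and the other 7 hMut hearts ended at 48.9. The means were 58.1 ± 39.9 CPM (SD, n = 9) in hMut and 35.8 ± 4.31 (SD, n = 8) in Ctrl, and the log2 fold change of 0.70 (SE 0.26, where SE is its standard error, adjusted p = 0.113, edgeR) did not pass. *C1qb* gave 24.0 to 38.3 CPM in Ctrl (median 33.8) and 29.8 to 155.7 in hMut (median 39.2), with a log2 fold change of 0.73 (SE 0.29, adjusted p = 0.127, edgeR). *C1qc* gave 21.9 to 35.9 CPM in Ctrl (median 30.2) and 26.1 to 120.4 in hMut (median 34.7), with a log2 fold change of 0.61 (SE 0.26, adjusted p = 0.154, edgeR). For all 3 chains the hMut median was above the Ctrl median by less than the range of the Ctrl hearts.

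The chains kept nearly the same proportions in every heart, including replicates 6 and 9. Lengths were those given with the counts, 1040 bases for *C1qa*, 1088 for *C1qb* and 1931 for *C1qc*, and levels per length depend on them. Per length (CPM per kilobase), the level of *C1qb* was 0.873 ± 0.0473 times that of *C1qa* in Ctrl (SD, n = 8). It was 0.877 ± 0.0607 times in hMut (SD, n = 9), with 0.931 in replicate 6 and 0.983 in replicate 9. The level of *C1qc* per length was 0.446 ± 0.0257 times that of *C1qa* in Ctrl and 0.422 ± 0.0293 times in hMut, with 0.406 in replicate 6. Over the 17 hearts, Spearman's rho was 0.951 between *C1qa* and *C1qb*, 0.892 between *C1qa* and *C1qc* and 0.890 between *C1qb* and *C1qc*, a description in which replicates 6 and 9 are the highest points of each pair.

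The genes of the proteases that C1q activates were not called. *C1s1*, which encodes C1s, was at 37.1 to 41.1 CPM in Ctrl and at 30.3 to 107.3 in hMut. Its log2 fold change was 0.37 (adjusted p = 0.214, edgeR), and 6 of 9 hMut hearts were above and 1 below every Ctrl heart. *C1ra*, which encodes C1r, was at 15.5 to 21.4 CPM in Ctrl and at 12.9 to 54.5 in hMut, with a log2 fold change of 0.36 (adjusted p = 0.277, edgeR). Both were highest in hMut replicate 6 and lowest in hMut replicate 2. *Masp1*, a protease of the lectin pathway, was at 18.1 to 30.6 CPM in Ctrl and 22.3 to 36.9 in hMut, and its log2 fold change of 0.31 (adjusted p = 0.108, edgeR) passed once hMut replicate 2 was left out (0.35, adjusted p = 0.0469). These 3 genes were chosen after their values were seen. Of 15 genes that start the cascade, 8 could be tested, 0 were called, 7 had a positive log2 fold change, and the median was 0.36. The shares over all genes tested were 4.62% called and 50.5% above 0.

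*C4b* (chromosome 17, 34947354-34962856, minus strand, 41 exons, ENSMUSG00000073418) encodes C4, the substrate of C1s. It was at 14.5 to 34.3 CPM in Ctrl (median 21.5) and at 16.8 to 170.8 in hMut (median 27.0). hMut replicates 6 (170.8 CPM), 9 (90.3 CPM) and 5 (46.6 CPM) were above every Ctrl heart, and the other 6 hMut hearts lay within the Ctrl range. The means were 49.8 ± 50.7 CPM (SD, n = 9) in hMut and 23.1 ± 7.41 (SD, n = 8) in Ctrl, a log2 fold change of 1.11 (SE 0.43, adjusted p = 0.122, edgeR). Without replicates 6 and 9 it was 0.21 (SE 0.21, adjusted p = 0.63). *C4a*, a near-identical copy annotated at 35028069-35042440 of the same chromosome, was at 0.149 to 0.349 CPM in Ctrl and 0.0825 to 0.406 in hMut, with a log2 fold change of 0.16 (adjusted p = 0.73, edgeR). How reads that match both copies were counted is not stated, so the levels of both genes are uncertain.

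*C3* (chromosome 17, 57510970-57535136, minus strand, 41 exons, ENSMUSG00000024164) encodes the protein on which all routes of the cascade converge. It was at 130.9 to 171.7 CPM in Ctrl (median 147.5) and at 134.0 to 764 in hMut (median 165.8). hMut replicate 6 was at 764 CPM, 5.09 times the Ctrl mean, and the next hearts were replicate 9 at 223.5 and replicate 5 at 210.7 CPM. The other 6 hMut hearts lay within the Ctrl range. The means were 234.9 ± 200.8 CPM (SD, n = 9) in hMut and 150.2 ± 12.6 (SD, n = 8) in Ctrl. The log2 fold change was 0.65 (SE 0.30, adjusted p = 0.18, edgeR), and 0.17 (adjusted p = 0.301) without replicate 6.

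*Cfb* (chromosome 17, 35075350-35081494, minus strand, 18 exons, ENSMUSG00000090231) encodes factor B and was the least abundant member. It was at 0.0929 to 0.444 CPM in Ctrl (median 0.264) and at 0.162 to 2.87 in hMut (median 0.271), from 4 to 121 counts per library. The value of 2.87 CPM was that of hMut replicate 6, 10.7 times the Ctrl mean, and the next heart, hMut replicate 5, was at 0.511. The log2 fold change of 1.15 (SE 0.57, adjusted p = 0.206, edgeR) moved to 0.17 with DESeq2 and 0.35 with limma-voom. The gene failed the low-count filter when any of hMut replicates 3, 4, 5, 6 or 9 was left out, so its value without replicate 6 could not be had. *C2* starts 85 bp beyond the end of *Cfb*, at 35081580-35117241, and encodes the matching protease of the classical pathway. It was at 0.139 to 0.539 CPM in Ctrl and at 0.197 to 2.44 in hMut, again highest in replicate 6, with a log2 fold change of 0.90 (adjusted p = 0.217, edgeR). An annotated read-through gene, *Gm20547* (35075388-35101018), overlaps nearly all of *Cfb* and a part of *C2*. It is listed at 0 counts in every library, and reads that fell on 2 genes may not have been counted. *Cfd*, which encodes the adipocyte-made factor D, had too few counts to be tested (0 to 21 per library, highest in hMut replicate 4).

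Of 7 genes of the convertases, 6 could be tested, 0 were called, and all 6 had a positive log2 fold change, with a median of 0.77. Over all genes tested, 4.62% were called and 50.5% were above 0. Outside replicates 6 and 9, the hMut median of *Cfb* and *C2* was 0.82 and 0.95 times the Ctrl mean. The excess in hMut replicate 6 over the Ctrl mean was larger for *Cfb*, *C4b* and *C3* (10.7, 7.38 and 5.09 times) than for *C1qa* (4.47 times). In replicate 9 *C4b* was at 3.90 times the Ctrl mean, against 2.065 times for *C1qa*. *Cfb* and *C3* were lower there than *C1qa*, at 1.76 and 1.49 times. In the plot of changes by heart the columns of replicates 6 and 9 stand out, and *C4b* and *Cfb* also vary among Ctrl hearts (coefficients of variation of 32.0% and 41.6%, against 8.41% for *C3*).

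**Figure D2:**
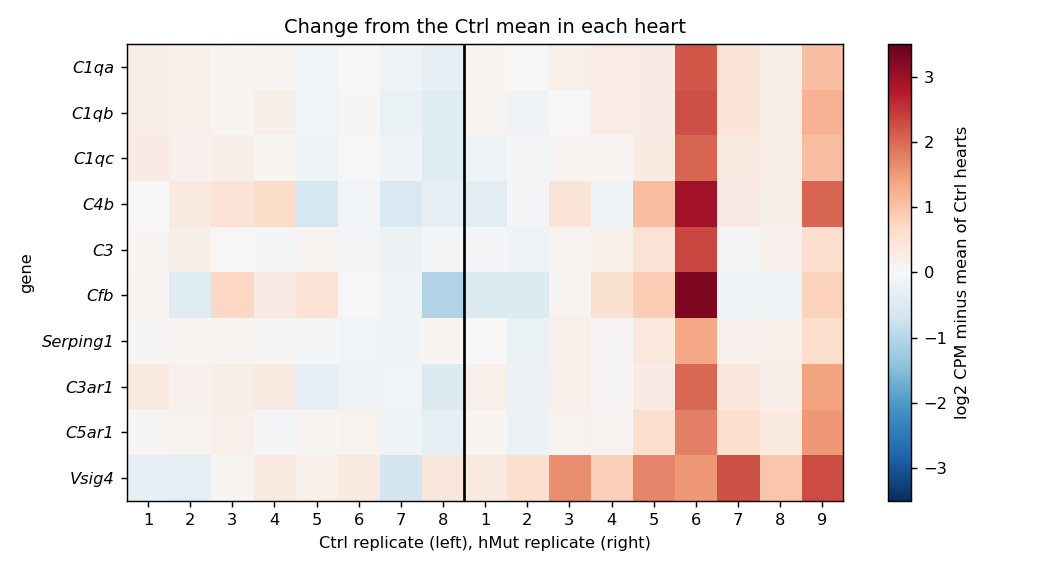
Log2 CPM of each gene (rows) in each heart (columns) minus the mean of the Ctrl hearts, as colour from blue (lower) to red (higher); the black line separates 8 Ctrl from 9 hMut hearts. The columns of hMut replicates 6 and 9 are red for every gene, whereas the row of *Vsig4* is red in most hMut columns.

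*Serping1* (chromosome 2, 84595731-84605788, minus strand, 8 exons, ENSMUSG00000023224), which encodes C1 inhibitor, was the steadiest member among Ctrl hearts. It was at 77.5 to 89.3 CPM in Ctrl (median 87.3) and at 71.8 to 216 in hMut (median 95.6). Of the 9 hMut hearts, 6 were above and 1 (replicate 2) was below every Ctrl heart. The log2 fold change was 0.36 (SE 0.16, adjusted p = 0.169, edgeR), and 0.10 (adjusted p = 0.435) without replicates 6 and 9.

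Of 19 regulators, 12 could be tested, 0 were called, 4 had a positive and 8 a negative log2 fold change, and the median was -0.08. All genes tested gave 4.62% called and 50.5% above 0. *Cd59a*, which encodes an inhibitor of the membrane attack complex, was at 105.2 to 118.5 CPM in Ctrl and at 63.6 to 124.2 in hMut, with its lowest value in hMut replicate 6 and a log2 fold change of -0.18 (adjusted p = 0.223, edgeR). *Clu*, which encodes clusterin, was at 500.2 to 688 CPM in Ctrl and 414 to 635 in hMut, with a log2 fold change of -0.17 (adjusted p = 0.24, edgeR). Both genes were chosen after their values were seen.

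*C3ar1* (chromosome 6, 122824097-122833120, minus strand, 2 exons, ENSMUSG00000040552) encodes the receptor for the C3a fragment, which is found on macrophages among other cells. It was at 5.81 to 10.4 CPM in Ctrl (median 8.34) and at 7.15 to 32.8 in hMut (median 9.63). hMut replicates 6 (32.8 CPM) and 9 (21.6 CPM) were far above the Ctrl hearts, replicate 7 (10.7 CPM) just above, and the others within their range. The log2 fold change was 0.67 (SE 0.27, adjusted p = 0.139, edgeR). *C5ar1* (chromosome 7, 15980668-15993465, minus strand, 2 exons, ENSMUSG00000049130) encodes the receptor for C5a on macrophages and neutrophils. It was at 4.53 to 6.37 CPM in Ctrl (median 5.87) and at 4.92 to 19.3 in hMut (median 7.24).

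*C5ar1* came closest to the threshold of the 9 members. In 5 of 9 hMut hearts it exceeded the highest Ctrl heart, at 7.24, 8.35, 8.78, 16.5 and 19.3 CPM, the last in replicate 6. The log2 fold change was 0.70 (SE 0.24, adjusted p = 0.0943, edgeR). It passed in DESeq2 (0.69, adjusted p = 0.0386) and when hMut replicate 2, the lowest hMut heart, was left out (0.78, adjusted p = 0.041, where 11.1% of all genes were called). Without replicates 6 and 9 it was 0.25 (adjusted p = 0.254). The summed neutrophil markers stayed at or below 3.25 CPM in every heart, and the macrophage markers were high in replicates 6 and 9 as both receptors were, and their part in these values was not tested.

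All 9 receptors of the pathway could be tested, and 1 was called (*Vsig4*). The log2 fold change was positive for 8 and negative for 1 (*Cr2*), and the median was 0.67. Among all genes tested, 4.62% were called and 50.5% were above 0. *Cd93*, which is made mostly by endothelium, was at 101.4 to 149.0 CPM in Ctrl and at 104.8 to 211.8 in hMut, above every Ctrl heart in 7 of 9 hMut hearts, with a log2 fold change of 0.35 (SE 0.12, adjusted p = 0.0786, edgeR). It passed in DESeq2 (adjusted p = 0.0344), in limma-voom (adjusted p = 0.0254) and without hMut replicate 8 (0.41, adjusted p = 0.0227), the lowest hMut heart. The integrin chains of the C3-fragment receptors, chosen after their values were seen, were highest in replicate 6. *Itgax* was at 29.0 CPM there, 4.58 in replicate 9 and 1.18 to 2.24 in the other hMut hearts, against 0.906 to 3.78 in Ctrl. Its log2 fold change of 1.10 (adjusted p = 0.269, edgeR) became -0.23 (adjusted p = 0.677) without replicate 6. *Itgb2* reached 58.7 CPM in replicate 6, with 15.7 in replicate 9. The other hMut hearts were at 7.0 to 9.67 and the Ctrl hearts at 5.71 to 11.8, and its log2 fold change of 0.73 (adjusted p = 0.246, edgeR) became 0.045 (adjusted p = 0.898) without replicate 6. *Cr2*, a receptor of B cells and follicular dendritic cells, had the lowest log2 fold change of the pathway, -1.99 (adjusted p = 0.112, edgeR). That value came from Ctrl replicate 3, at 9.96 CPM against 0.162 to 1.41 in the other Ctrl hearts and 0.110 to 0.979 in hMut, and it was -0.41 (adjusted p = 0.596) without that heart. Ctrl replicate 3 also held 12.1 CPM of *Ms4a1* and 10.9 of *Cd79a*, both B-cell markers, and the part of these cells in the result was not tested.

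*Vsig4* was the only one of the 37 pathway genes tested that passed the threshold, against 4.62% of all genes. It encodes CRIg, a receptor of resident macrophages for C3b and iC3b that also blocks the alternative-pathway convertase, and lies at 95290809-95337044 on the minus strand of chromosome X. *Vsig4* was at 0.697 to 1.53 CPM in Ctrl (median 1.25) and at 1.46 to 5.84 in hMut (median 3.36), from 28 to 259 counts per library. In hMut replicates 1 to 9 it was at 1.46, 1.71, 3.65, 2.08, 3.89, 3.36, 5.55, 2.30 and 5.84 CPM. All hMut hearts except replicate 1 were above every Ctrl heart, a separation of 8 or more hearts that 1.70% of all genes tested showed. *Vsig4* rose by 1.48 on the log2 scale (SE 0.27, adjusted p = 0.00455, edgeR), from a mean of 1.19 ± 0.31 CPM (SD, n = 8) to 3.32 ± 1.60 (SD, n = 9).

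The call of *Vsig4* did not depend on the hearts with the most C1q. Without hMut replicates 6 and 9 its log2 fold change was 1.31 (SE 0.27, adjusted p = 0.0109), and it was called in each of the 29 alternatives, with log2 fold changes between 1.25 and 1.66 and adjusted p up to 0.045, the highest with the replicate number as a block, a fit that called 1.20% of all genes. *Vsig4* was highest in replicate 9 (5.84 CPM), which was second for *C1qa*, and next in replicate 7 (5.55 CPM), where *C1qa* was at 48.9 CPM, while replicate 6, the highest for *C1qa*, had 3.36. Over the 17 hearts Spearman's rho between *Vsig4* and *C1qa* was 0.647, a description over hearts of 2 groups. Per length, its level relative to that of *C1qa* ran from 0.0153 to 0.037 in Ctrl and from 0.0148 (replicate 6) to 0.0795 (replicate 7) in hMut. The summed macrophage markers of hMut hearts other than replicates 6 and 9, 345 to 421.6 CPM, overlapped those of Ctrl, 269.7 to 399.7, and 0 of the 16 passed the test. With all 17 hearts, the median log2 fold change of the 16 was 0.47. Among them *Timd4*, *Lyve1* and *Mrc1*, which mark resident macrophages, had 0.40, -0.13 and 0.18. In hMut hearts other than replicates 6 and 9, *Folr2* was at 2.30 to 4.69 CPM, against 2.04 to 3.45 in Ctrl. *Mertk* was at 8.91 to 16.1 there, against 8.96 to 12.7, and *Cd163* at 11.6 to 24.6, against 9.06 to 18.3. The promoter of *Vsig4*, the one called gene, is shown (RefSeq, GRCm38.p6, 250 bases, capitals for GAGGAA, at 155 and 53 bases upstream of the start).
*Vsig4*, chrX:96293439-96293688, minus strand: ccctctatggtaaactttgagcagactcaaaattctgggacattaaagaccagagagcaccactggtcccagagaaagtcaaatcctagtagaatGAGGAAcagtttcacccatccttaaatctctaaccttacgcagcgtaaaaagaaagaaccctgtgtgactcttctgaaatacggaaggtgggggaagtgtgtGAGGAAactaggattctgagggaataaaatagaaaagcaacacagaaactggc

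**Figure D3:**
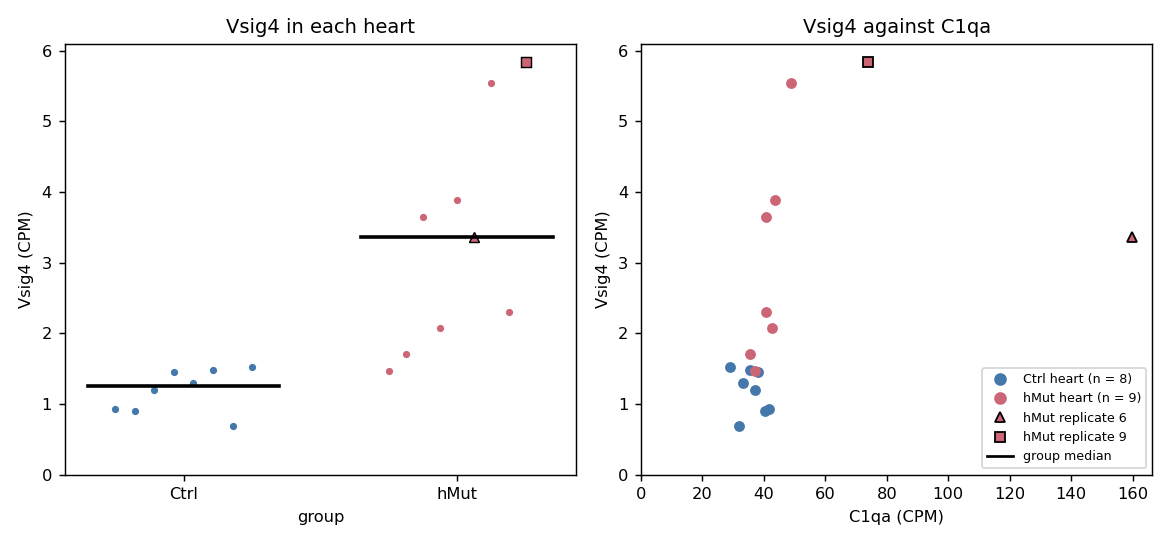
Left, CPM of *Vsig4* in each Ctrl (n = 8) and hMut (n = 9) heart with a line at the group median (1.25 and 3.36); right, *Vsig4* against *C1qa* CPM in the same hearts. All hMut hearts but 1 lie above the highest Ctrl heart (1.53), and replicate 6, far to the right at 159.9 CPM of *C1qa*, is not the highest for *Vsig4*.

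The fitted changes with and without the hearts that stood apart separate *Vsig4* from the 9 members. With all hearts, log2 fold changes of the members lay between 0.36 (*Serping1*) and 1.15 (*Cfb*). Without replicates 6 and 9, the 8 members that could be tested lay between 0.10 (*C3* and *Serping1*) and 0.25 (*C5ar1*), all still above 0, where the median over all genes was -0.0058. *C1qa* was then at 0.21 (SE 0.08, adjusted p = 0.163), *C1qb* at 0.17 (adjusted p = 0.37) and *C1qc* at 0.12 (adjusted p = 0.543). With library sizes taken from total counts alone, the median of all genes moved to 0.17. In that fit 5672 genes (35.0%) were called, 97.8% of them higher against 75.3% with TMM. There 8 members were called, all except *Cfb*, and the median log2 fold change of the 9 members was 0.89. The mtDNA-encoded share of counts was 23.5 to 30.9% in Ctrl and 15.9 to 23.0% in hMut libraries. The part of that share in these calls was not tested.

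**Figure D4:**
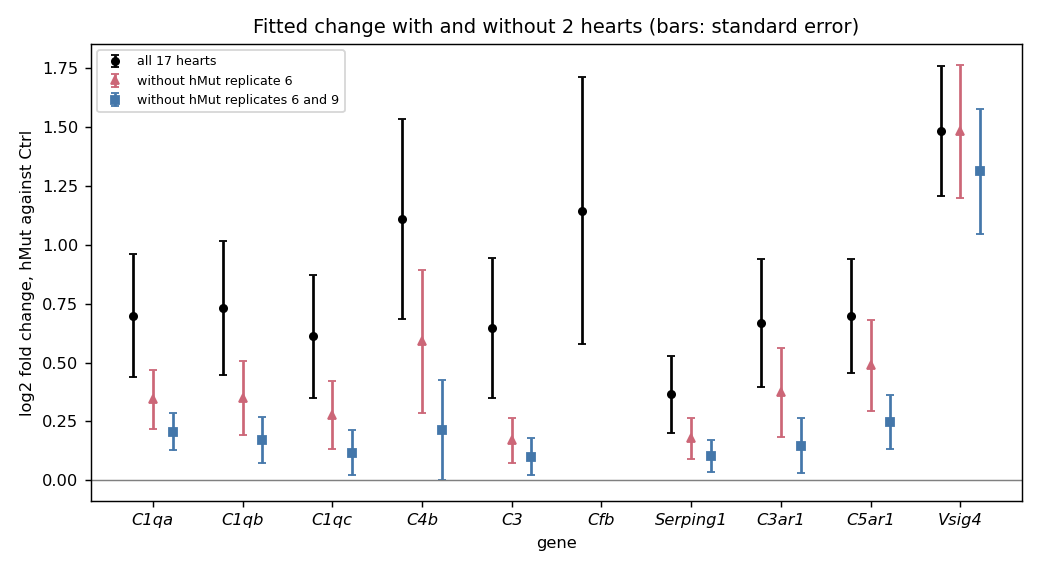
Log2 fold change of hMut against Ctrl for each gene with all 17 hearts (black), without hMut replicate 6 (red) and without replicates 6 and 9 (blue); bars are standard errors. *C4b* goes from 1.11 to 0.21 and *C3* from 0.65 to 0.10, *Vsig4* stays at 1.31 or more, and *Cfb* has a value with all hearts only because it did not pass the low-count filter without replicate 6.

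For this comparison *C1qa* was taken as a macrophage gene and *C3* and *C4b* as stromal genes. That is an assumption, since bulk tissue does not show which cells made the RNA. Whether they moved apart was asked with the ratio of *C3* and *C4b* to *C1qa* within each heart, which does not depend on library scaling. The *C3* to *C1qa* ratio of CPM was 3.91 ± 0.646 in hMut (SD, n = 9) and 4.23 ± 0.452 in Ctrl (SD, n = 8), a difference of -0.12 on the log2 scale (two-sided exact permutation p = 0.235, adjusted over the 3 ratios tested p = 0.352). The *C4b* to *C1qa* ratio was 0.756 ± 0.289 in hMut (SD, n = 9) and 0.64 ± 0.167 in Ctrl (SD, n = 8), a difference of 0.19 (exact permutation p = 0.409, adjusted p = 0.409). Neither difference was larger than the spread between hearts.

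In hMut replicate 6, both the C1q genes and the genes taken as stromal, *C3* and *C4b*, were far above the Ctrl average. In replicate 9 the log2 change was 0.58 for *C3* and 2.03 for *C4b*, against 1.05 to 1.23 for the C1q genes. The mean log2 change from the Ctrl average over *C1qa*, *C1qb* and *C1qc* came to 2.15 in hMut replicate 6, with 1.12 in replicate 9, and that over *C3* and *C4b* was 2.65 and 1.30. In the other hMut hearts the C1q average lay between -0.055 and 0.41 and the stromal average between -0.23 and 0.78. hMut replicate 5 had the highest stromal average of these, 0.78, with a C1q average of 0.30, and replicate 7 had the highest C1q average, 0.41, with a stromal average of 0.12. Over all 9 hMut hearts the averages were 0.49 ± 0.71 (SD) for C1q and 0.55 ± 0.92 for the stromal genes, a comparison that was not tested. The fibroblast marker sums of replicates 6 and 9, 2902 and 2382 CPM, were above the Ctrl maximum of 2240. The highest of the other hMut hearts was at 2403. In each of replicates 6 and 9, 9 of the 11 fibroblast markers were above every Ctrl heart, as were 31.1% and 27.9% of all genes. The part of the fibroblast and macrophage markers in these values was not tested.

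Hearts could be read member by member. No member was above every Ctrl heart in hMut replicates 1 and 2, where 11.0% and 10.9% of all genes tested were, and *Serping1* was below every Ctrl heart in replicate 2. One member was above in replicate 3 (*Serping1*, 13.7% of all genes), 2 in replicate 4 (*C1qa* and *C1qb*, 14.7%) and 2 in replicate 8 (*C5ar1* and *Serping1*, 15.6%). In replicate 7, 6 members were above (17.7% of all genes), namely the 3 C1q chains, *C3ar1*, *C5ar1* and *Serping1*, while *C3*, *C4b* and *Cfb* were within the Ctrl range. In replicate 5, 8 members were above (16.0% of all genes), all except *C3ar1*. All 9 were above in replicates 6 and 9, where 31.1% and 27.9% of all genes were.

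Compared per length among Ctrl hearts, *Serping1*, *C1qa*, *C1qb* and *C3* were the most abundant of the members. The levels in CPM per kilobase were 36.6 ± 2.01 for *Serping1*, 34.4 ± 4.15 for *C1qa*, 30.2 ± 4.70 for *C1qb* and 29.2 ± 2.46 for *C3* (SD, n = 8 for each), and neighbours in this order overlapped. *C1qc* followed at 15.4 ± 2.34, below every Ctrl value of *C3*. *C4b* was at 4.06 ± 1.30, above every value of *C5ar1* (2.22 ± 0.243), which overlapped *C3ar1* (1.93 ± 0.386), and *Cfb* was last at 0.0952 ± 0.0396.

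The tested genes whose levels ranked most like those of a member over the 17 hearts differed between C1q, C3 and C4. For *C1qa* they were *Phc2* (Spearman's rho 0.983), *Col4a2* (0.966), *Tor3a* (0.958), *Loxl1* (0.956) and *Col4a1* (0.953). *Col4a1* and *Col4a2* encode the collagen IV chains of basement membranes and *Loxl1* an elastin crosslinking enzyme, and all 3 passed the test, with log2 fold changes of 0.53, 0.45 and 0.57. For *C3* they were *Adamtsl5* (0.900), *Lin37* (0.890), *St8sia1* (0.887), *Atxn2l* (0.877) and *Cybc1* (0.877), and for *C4b* they were *Susd3* (0.936), *Sorbs2* (0.936), *Itga5* (0.931), *Blk* (0.931) and *Ptpn21* (0.922). None of the 10 genes listed for *C3* and *C4b* passed. These are ranks over hearts that share 2 groups and 2 hearts high in immune genes. Among the members themselves, rho ran from 0.449 (*Cfb* with *Serping1*) to 0.951 (*C1qa* with *C1qb*). *C3ar1* ranked more like the C1q chains (0.855 to 0.870) than like *C4b* (0.787) or *C3* (0.458). Between *C3* and *C4b* rho was 0.542, below that of *C1qa* with *C3* (0.708) and with *C4b* (0.706).

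The terminal components were sparse in these hearts. Of 7 genes, *C7* and *C8g* could be tested. *C7*, chosen after its values were seen, varied widely in both groups, from 2.81 to 19.4 CPM in Ctrl and from 2.79 to 29.1 in hMut, with a log2 fold change of 0.62 (adjusted p = 0.399, edgeR). *C8g* was at 2.62 to 4.03 CPM in Ctrl and at 1.40 to 3.0 in hMut, with 5 hMut hearts below every Ctrl heart and its lowest value in replicate 6. Its log2 fold change was -0.50 (SE 0.16, adjusted p = 0.0758, edgeR). It passed in DESeq2 (adjusted p = 0.0299), in limma-voom (adjusted p = 0.0275) and without hMut replicate 2 (-0.57, adjusted p = 0.0307), the highest hMut heart. The highest *C8g* value, 4.03 CPM, was in Ctrl replicate 3, which also had the most albumin RNA (*Alb*, 290.2 CPM). *C8g* overlaps *Fbxw5* in the annotation, so its level is uncertain.

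Over the whole pathway, 37 of 57 genes could be tested, and 1 was called higher and 0 lower by edgeR. Of all genes tested, 3.48% were called higher. At an unadjusted p under 0.05, 12 of the 37 were higher and 3 lower, and 8 of the 12 were members. Of all 16195 genes tested, 14.5% were higher and 1831 genes were lower at that level. The 20 pathway genes that were not tested had too few counts. Of these, 14 were higher in Ctrl replicate 3 than in any other heart, and for 13 the highest hMut heart was replicate 4, the 2 libraries with the most albumin RNA (*Alb*, 290.2 and 92.4 CPM, against 0 to 16.9 in the other libraries). *Mbl2*, which encodes a mannose-binding lectin made by the liver, had 87 counts in Ctrl replicate 3, 49 in hMut replicate 4 and at most 2 elsewhere. *C4bp*, which encodes a plasma inhibitor of C4b, had 77 and 28 counts and at most 5 elsewhere, and *Hc*, which encodes C5, had 75 and 23 and at most 11 elsewhere. *C6* went another way, with 96 counts in hMut replicate 6, 28 in Ctrl replicate 3 and 4 in hMut replicate 4. The summed level of the 20 genes was 22.2 CPM in Ctrl replicate 3, 6.52 in hMut replicate 4 and 3.39 in hMut replicate 6. *C3*, *C4b* and *Cfb*, which liver also makes, were at 151.1, 31.6 and 0.444 CPM in Ctrl replicate 3 and at 168.1, 19.9 and 0.382 in hMut replicate 4. With these 2 libraries left out, a check added after the data were seen, 0 members were called and their median log2 fold change was 0.76.

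**Figure D5:**
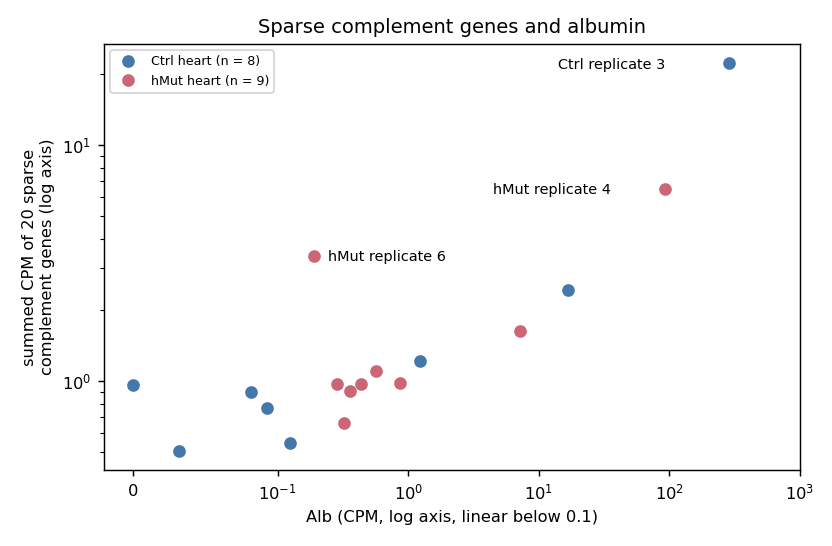
Summed CPM of the 20 complement genes with too few counts to test (log axis) against *Alb* CPM (log axis, linear below 0.1) in each of 17 hearts. Ctrl replicate 3 and hMut replicate 4 lie at the upper right with 22.2 and 6.52 CPM, and hMut replicate 6 stands above the rest at 3.39 CPM with 0.19 CPM of *Alb*.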

How the data were processed

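Poly(A) RNA was enriched from heart tissue and sequenced on an Illumina instrument, and the submitters' processing notes name fastp, HISAT2 (version 2.2.1), the build GRCm39 and featureCounts (version 2.0.6). The authors deposited whole-number read counts for each gene, without any scaling. Strand and multi-mapping settings are not given in the sources used here, so overlapping and near-identical genes are uncertain.

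Counts were tested with edgeR 4.0.16 (R 4.3.3): TMM scaling, filterByExpr, glmQLFit and glmQLFTest with group as the only term over all 17 libraries, and Benjamini-Hochberg adjustment over all genes tested. The study's methods name DESeq2, which was run as an alternative (version 1.42.0), as was limma 3.58.1. Other alternatives were RLE, upper-quartile and total-count scaling, mtDNA-encoded genes left out, other filters on low counts, sex or library number as a term, and libraries left out. Standard errors were obtained from the log2 fold change and the square root of F, as their quotient. CPM values use TMM library sizes, and ratios use log2 CPM with a prior count of 2. Ratios were tested over all 24310 splits of the hearts, with Python 3.11.15, numpy 2.4.6, scipy 1.17.1 and pandas 2.3.3; figures were drawn with matplotlib 3.10.9. The tests were tried on simulated data. At this depth a gene with 3 counts or fewer in a library was taken as not detectable, for counting error only.

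The members, the pathway and marker lists and the rule for naming genes were chosen with earlier results of these data known. The rule names the 9 members, each pathway gene past the threshold, the 3 others with the smallest p, *C4a*, *Cfd*, and the 5 genes ranked most like *C1qa*, *C3* and *C4b*. *Cr2*, *Itgax*, *Itgb2*, *C7*, *C1ra*, *C1s1*, *C2*, *Masp1*, *Cd59a* and *Clu* were added after their values were seen. One further gene is left out of the text, as is its ratio to *C1qa*, which counts among the 3 ratios tested. Samples were grouped by the depositors' labels. Same-numbered hMut and Ctrl libraries are not said to share anything, and their deviations correlated between -0.225 and 0.339, so the numbers were not taken as pairs. Sex was read from the counts for use as a covariate. Promoters and their coordinates are from RefSeq on GRCm38.p6, and gene coordinates from the deposited table on GRCm39.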

Additional observations from a re-analysis of the deposited data

Results flagged for a closer look

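hMut replicate 6 lay far from the other hMut hearts for 7 genes. Its distance to the second highest heart, as a share of the range over all hMut hearts, was past Dixon's critical value at the 95% level. Dixon's criterion was applied 22 times, to 11 genes in each group, and chance alone flags about 5% of such tests. The values of that heart were 159.9 CPM for *C1qa*, 155.7 for *C1qb*, 120.4 for *C1qc*, 764.2 for *C3*, 170.8 for *C4b*, 2.866 for *Cfb* and 216.0 for *Serping1*. The gap was 0.871 of the range for *Cfb*, 0.858 for *C3*, 0.69 for *C1qa*, 0.633 for *C1qb*, 0.619 for *C1qc*, 0.596 for *Serping1* and 0.522 for *C4b*, where the next heart was replicate 9. The flags are not independent of each other, since they come from 1 library. No Ctrl heart was flagged, and neither *C3ar1*, *C5ar1* nor *Vsig4* was flagged in either group.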

How the results depend on the processing

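The 749 genes called became 5672 with total counts only, 2081 with limma-voom, 1556 with DESeq2, 463 with no filter on low counts, 195 with the replicate block, 431 without hMut replicates 6 and 9 and 472 without Ctrl replicate 3 and hMut replicate 4. Leaving out each library gave 395 to 1792 genes. It was 1182 and 1792 without hMut replicates 1 and 2, 395, 497, 400 and 415 without hMut replicates 5, 6, 7 and 9, and 486, 486, 443, 432, 437 and 428 without Ctrl replicates 1, 2, 5, 6, 7 and 8. The called share that was higher, 75.3%, was 97.8% with total counts only. The 0 members called became 8 with total counts only and 1 with DESeq2, and 0 to 1 when each library was left out. The 1 pathway gene became 15 with total counts only, 4 with DESeq2 and 4 with limma-voom, and 1 to 4 when each library was left out. The cause of these shifts was not tested, nor was the part of the mtDNA-encoded share of counts, which differed between the groups, in the fit with total counts only.

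*Itgax* changed sign in DESeq2 (-0.24), limma-voom (-0.36), with the replicate block (-0.0345) and without replicates 6 and 9 (-0.54), and ranged from -0.23 to 1.24 when each library was left out. *Itgb2* (-0.12) and the *C4b* to *C1qa* ratio (-0.0052, adjusted p = 0.979) changed sign without replicates 6 and 9. Of 684 pairs of a named gene and an alternative, 657 kept their direction and side of the threshold, 21 passed only under the alternative, and 6 changed sign. The numbers did not pair the hearts, 1 of 8 libraries correlated best with its own number, and the block changed no call of a complement gene named here. hMut replicate 9 has no partner and adds nothing to that fit. *Cfb* could not be fitted in 7 alternatives and *C4a* in 5, where they failed the low-count filter.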
